A study of Mus musculus with 33 samples.

Results

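Classical monocyte identity genes were followed in 9 members, Vcan, F13a1, Ly6c2, Chil3, Thbs1, Saa3, Plac8, Ms4a4c and Ms4a6c, of the 32285 mouse genes in the count tables. The members are a fixed list of names, and each was described in every cell class, tissue and biotin sort. The samples came from SAMENT, a niche labelling method in which injected tumour cells carry an enzyme that tags neighbouring cells with biotin. Tissues were taken after overnight labelling with the SAMENT substrate, dissociated with collagenase and sorted for biotin, which left a positive and a negative fraction. Of the 33 deposited samples, 32 followed an intracardiac injection, which form 8 groups of 4, since bone, brain, liver and lung were each split by biotin. The other sample was a pool of bone cells from an injection that the labels name IIA, in which hashtags marked 12 samples, 6 of each sort. These are numbered by injection, and each number is shared by a positive and a negative sample. All groups shared the tumour cell injection and the substrate, so no group was free of tumour. The labels used here gave no strain, age, sex or tumour line, and nothing in them tied a sample to a single animal. The p-values below therefore measure the spread between these samples as the tests model it over all genes, and that spread may be partly technical.

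Classical monocytes leave the bone marrow in a CCR2-dependent way, circulate with high surface Ly6C, and enter inflamed or tumour-bearing tissue, where they can become macrophages or dendritic cells. A smaller population of nonclassical monocytes has low Ly6C, patrols the vessel wall and depends on Nr4a1. The 9 genes are widely used to tell classical monocytes from both nonclassical monocytes and resident macrophages. Vcan encodes versican, a large matrix proteoglycan, Thbs1 encodes thrombospondin, a secreted matrix glycoprotein, and F13a1 encodes the transglutaminase subunit of the clotting factor that cross-links fibrin. Chil3 encodes the secreted chitinase-like lectin Ym1, and Saa3 an acute phase apolipoprotein. Ly6c2 encodes a lipid-anchored surface protein that carries the Ly6C epitope. Plac8 encodes a small cysteine-rich protein, and Ms4a4c and Ms4a6c encode membrane proteins of the MS4A family.

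After filtering, 55366 of 57065 intracardiac cells were kept, 94 to 3505 per sample with 482617 to 44834665 UMIs (deduplicated transcripts). The IIA pool gave 22362 cells, 249 to 2140 per positive and 2322 to 3480 per negative sample. Levels are UMIs per 1000000 UMIs (CPM) of the counts summed over the cells of a sample, or over the cells of 1 class in a sample. Clusters were found without the 9 genes and named from marker lists that hold none of them, so a name stands for resemblance. In the intracardiac cells 25 of 30 clusters could be named. Classical monocytes were clusters 2 and 3, both led by Ccr2 and Fn1, and nonclassical monocytes clusters 12 and 15, led by Ace and Adgre4. Cluster 23, with Pf4, Spp1 and Ppbp among its leading genes, could not be named and is given by its number. Between intracardiac samples, 182 of 496 sample pairs shared cell barcodes, at most 7 in a pair.

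In mm10 with the GENCODE M21 annotation, all 9 are protein-coding genes, and 2 pairs lie on the same chromosome. Vcan spans chr13:89655312-89742509 and F13a1 chr13:36867178-37050244, both on the minus strand and far apart. Ms4a4c at chr19:11404770-11427246 and Ms4a6c at chr19:11469366-11482192, both on the plus strand, are neighbours within the Ms4a cluster. The others are Ly6c2 at chr15:75108158-75111970 (minus strand), Chil3 at chr3:106147554-106167564 (minus), Thbs1 at chr2:118111876-118127133 (plus), Saa3 at chr7:46711998-46715700 (minus) and Plac8 at chr5:100553725-100572245 (minus).

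The 250 bases before the RefSeq start site (GRCm38.p6) are printed here for the neighbouring pair Ms4a4c and Ms4a6c, for Saa3, which followed the replicate number, and for Ly6c2, which was lower in liver and lung monocytes than in bone. Capitals mark matches, on either strand, to GAGGAAGT (a PU.1-like motif), TTGCNNAA (C/EBP), GAAA and GAAA 2 bases apart (interferon response) or GGGA and CC 4 bases apart (NF-kB); TATAAA was searched too. Windows of 300 bases, which add 50 bases after the start, held these motifs in 3.20%, 10.8%, 3.44%, 20.7% and 13.6% of 32851 mouse promoters. Ly6c2 had GAGGAAGT beginning 108 bases before its start, and Saa3 had a C/EBP match 99 bases and an interferon response match 125 bases before its own. Ms4a6c had an NF-kB match 189 bases before its start, and the Ms4a4c stretch, which lies inside the longer GENCODE gene, held none of the motifs. Ly6c2 has a second RefSeq start nearby, and the first entry is shown.
Ly6c2, chr15:75111972-75112221, minus strand: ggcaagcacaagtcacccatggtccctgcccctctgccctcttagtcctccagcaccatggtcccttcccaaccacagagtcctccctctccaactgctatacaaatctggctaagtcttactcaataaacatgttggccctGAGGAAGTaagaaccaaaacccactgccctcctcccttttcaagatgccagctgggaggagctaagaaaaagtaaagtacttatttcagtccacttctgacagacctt
Saa3, chr7:46715677-46715926, minus strand: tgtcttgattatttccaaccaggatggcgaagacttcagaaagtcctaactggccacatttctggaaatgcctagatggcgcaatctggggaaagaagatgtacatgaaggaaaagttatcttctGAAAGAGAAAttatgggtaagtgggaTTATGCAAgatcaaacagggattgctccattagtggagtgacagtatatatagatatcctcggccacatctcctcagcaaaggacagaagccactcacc
Ms4a4c, chr19:11407411-11407660, plus strand: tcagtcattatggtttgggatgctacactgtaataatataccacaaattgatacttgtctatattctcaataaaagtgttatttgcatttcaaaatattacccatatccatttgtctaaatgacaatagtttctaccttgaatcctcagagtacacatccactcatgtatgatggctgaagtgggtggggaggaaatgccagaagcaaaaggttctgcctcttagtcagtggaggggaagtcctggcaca
Ms4a6c, chr19:11469118-11469367, plus strand: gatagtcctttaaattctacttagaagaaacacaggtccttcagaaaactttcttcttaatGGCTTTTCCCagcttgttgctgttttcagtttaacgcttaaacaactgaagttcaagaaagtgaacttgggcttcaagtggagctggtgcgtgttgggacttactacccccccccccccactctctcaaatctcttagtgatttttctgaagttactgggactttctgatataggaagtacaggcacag

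In the intracardiac samples, classical monocytes had the highest median of all classes for 5 of the 9 genes: Vcan, F13a1, Saa3, Ms4a4c and Ms4a6c. The other 4 were higher elsewhere, Ly6c2 in neutrophil precursors, Chil3 in alveolar macrophages, Thbs1 in cluster 23 and Plac8 in plasmacytoid dendritic cells. The label of the list therefore fitted its members unevenly. Levels by class are given as a description with no test, over samples with at least 10 cells of the class.

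**Figure D1:**
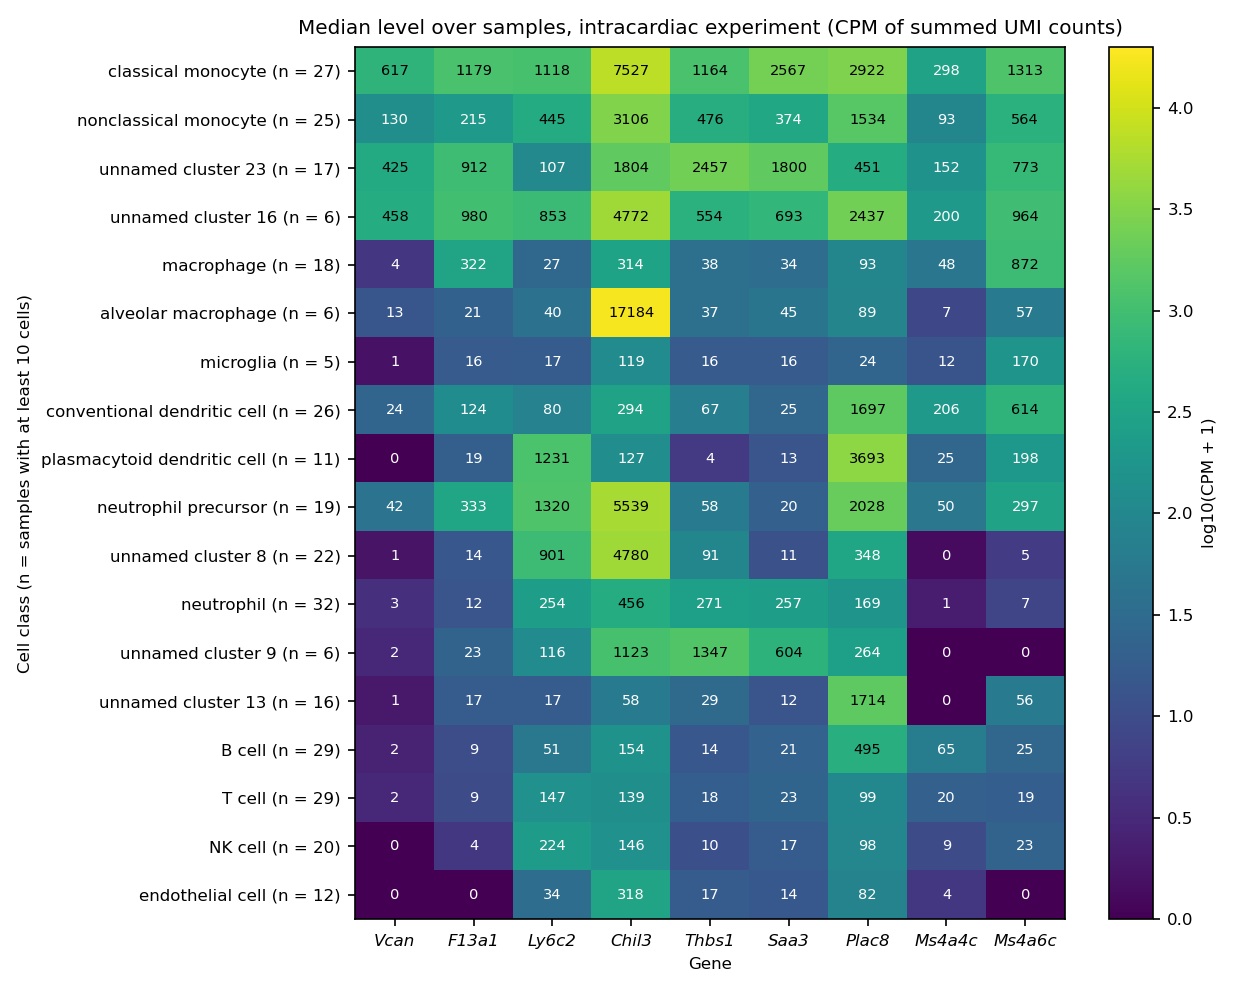
Median CPM over samples of each gene (columns) in each cell class (rows) of the intracardiac experiment, coloured by log10(CPM + 1), with n the number of samples. Vcan has its highest values, 617, 458 and 425, in classical monocytes and clusters 16 and 23, whereas Chil3 is highest in alveolar macrophages at 17184.

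Among the genes of matrix and clotting, Vcan separated classical monocytes from macrophages most sharply. Its median in classical monocytes was 617 CPM over 27 samples (362 to 1059), against 3.72 CPM over 18 samples in macrophages (0 to 20.0). These ranges did not overlap. Nonclassical monocytes were between them at 130 CPM (8.34 to 369, 25 samples), and cluster 23 reached 425 CPM (61.1 to 1271, 17 samples), a range that took in that of classical monocytes. Cluster 16, which had Ccr2 and Fn1 together with B cell genes, was at 458 CPM (247 to 691, 6 samples). F13a1 had a median of 1179 CPM in classical monocytes (730 to 1754), 980 CPM in cluster 16 (604 to 1198) and 912 CPM in cluster 23 (454 to 1448), which overlapped. Its median in macrophages was 322 CPM with a range of 11.2 to 1855, which spanned the monocyte range. It differed by tissue and sort: the 4 biotin positive brain samples had macrophage F13a1 of 905 to 1855 CPM, the 4 negative brain samples 315 to 698 CPM, and 3 positive liver samples 11.2 to 329 CPM. The positive brain macrophages overlapped classical monocytes, with 1 sample above them all. Thbs1 was highest in cluster 23 at 2457 CPM (1099 to 6980), followed by 1347 CPM in cluster 9, led by Cxcl3 and Ccl3 (864 to 3398, 6 samples), and 1164 CPM in classical monocytes (80.2 to 3189). All 3 ranges overlapped.

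The secreted proteins Chil3 and Saa3 had different partners. Chil3 was at 7527 CPM in classical monocytes (5575 to 9885) and 3106 CPM in nonclassical ones (889 to 8897). Alveolar macrophages exceeded every monocyte sample with 17184 CPM (16227 to 25590, 6 samples). Neutrophil precursors had 5539 CPM (1635 to 7412) and cluster 8, led by the granule genes Ltf, Ngp and Camp, 4780 CPM (3515 to 6863), so that Chil3 overlapped between monocytes and immature granulocytes. Saa3 ranged widely within classical monocytes, from 184 to 6871 CPM around a median of 2567. Cluster 23 was next at 1800 CPM (32.8 to 6715), then cluster 16 at 693 CPM, cluster 9 at 604 CPM and nonclassical monocytes at 374 CPM (24.6 to 1951). Neutrophils had 257 CPM (17.1 to 2047, 32 samples).

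Of the surface and membrane genes, Ly6c2 was as high outside classical monocytes as within them. Its median was 1118 CPM in classical monocytes (588 to 2220), 1320 CPM in neutrophil precursors (925 to 2224, 19 samples) and 1231 CPM in plasmacytoid dendritic cells (687 to 2445, 11 samples), with all 3 ranges overlapping. Nonclassical monocytes had 445 CPM (0 to 1149), cluster 23 had 107 CPM (13.3 to 294) and macrophages 26.7 CPM (12.6 to 107). Cluster 23, high in Vcan, F13a1, Thbs1 and Saa3, was therefore low in Ly6c2, with no overlap with classical monocytes. Plac8 was highest in plasmacytoid dendritic cells at 3693 CPM (2491 to 4279), which overlapped the 2922 CPM of classical monocytes (2105 to 4313). Conventional dendritic cells had a Plac8 median of 1697 CPM (269 to 5162) and macrophages 92.9 CPM (0 to 870).

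Both Ms4a genes were highest in classical monocytes, and Ms4a6c was also high in macrophages. The Ms4a4c median was 298 CPM in classical monocytes (186 to 514), 206 CPM in conventional dendritic cells (49.8 to 439) and 47.6 CPM in macrophages (7.77 to 274). Ms4a6c had 1313 CPM in classical monocytes (1069 to 1776), 964 CPM in cluster 16, 872 CPM in macrophages (302.4 to 1400), 773 CPM in cluster 23 (500.3 to 1278) and 614 CPM in conventional dendritic cells (174 to 1321). Macrophage and monocyte ranges overlapped for both genes. In microglia, 5 samples had a Ms4a6c median of 170 CPM (66.9 to 525).

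T cells give a guide to the level that free RNA and doublets can leave, except for Ly6c2, Plac8 and Ms4a4c, which T cells can express. Their medians over 29 samples were 2.03 CPM for Vcan, 8.74 CPM for F13a1, 18.4 CPM for Thbs1, 22.99 CPM for Saa3, 18.5 CPM for Ms4a6c and 139 CPM for Chil3. The macrophage median of Vcan, 3.72 CPM, was near the T cell one. Reads of close paralogs could be shared with a member, so their levels were compared in classical monocytes. Ly6c1, the endothelial partner of Ly6c2, had a median of 0 CPM, as did Saa1, Saa2 and Chil4. Ms4a6d had 275 CPM and Ms4a6b 325 CPM, and the part of shared reads within the Ms4a cluster was not tested.

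In the IIA pool, which was sequenced from the other transcript end and is not compared in level with the intracardiac data, classical monocytes (cluster 15) again had the highest median for F13a1, Vcan, Saa3, Ms4a4c and Ms4a6c. F13a1 did not overlap with the next class, with 1788 CPM over 9 samples (1484 to 2001) and 657 CPM (379 to 1011) in cluster 16, led by Nr4a2 and H2-Ab1. Vcan in classical monocytes, 345 CPM (118 to 441), overlapped stromal cells, the matrix-producing cells of marrow, at 317 CPM (231 to 370) and cluster 16 at 310 CPM (113 to 401). Plasma cells had the highest Ly6c2 with 5181 CPM (393 to 7050, 5 samples), above the 2848 CPM of classical monocytes (2608 to 3181). Thbs1 was 91.3 CPM in IIA classical monocytes (4.66 to 197), 758 CPM in macrophages (0 to 3502) and 1103 CPM in cluster 16 (130 to 1808). Saa3 was 89.8 CPM in IIA classical monocytes (12.4 to 187), with cluster 16 next at 64.5 CPM.

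Over the 30 intracardiac clusters, the members did not follow a single pattern. Correlations of log2(CPM + 10) across clusters, which share libraries and are given as a description, were highest for Thbs1 with Saa3 (r = 0.89) and F13a1 with Ms4a6c (r = 0.88) and lowest for Ly6c2 with Ms4a6c (r = 0.09). The neighbours Ms4a4c and Ms4a6c had r = 0.79. Of the other genes reaching 50 CPM in a cluster, the most like Vcan was Fn1, encoding fibronectin (r = 0.92), and the most like Ms4a4c was Ccr2, the receptor for marrow exit (r = 0.88). The closest for the rest were Ms4a4a for F13a1 (0.87), Gapt for Ly6c2 (0.79), Fcor for Chil3 (0.86), Emilin2 for Thbs1 (0.90), Gm5150 for Saa3 (0.88), Napsa for Plac8 (0.83) and Tep1 for Ms4a6c (0.92).

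The sort was compared first over all kept cells of a sample, which asks how much of each transcript the tagged and the untagged cells of a tissue held together. In such sums over mixed cells, fewer cells of a type and less RNA per cell cannot be told apart. Classical monocytes were a smaller share of cells in the positive sort, with medians of 3.91% against 11.3% in bone, 1.18% against 14.6% in brain, 1.81% against 17.8% in liver, 2.78% against 11.3% in lung and 1.72% against 6.37% in IIA bone. Macrophages were a larger share there in brain (25.1% against 4.09%), liver (11.2% against 0.88%), bone (4.11% against 0.15%) and IIA bone (9.96% against 0.16%), and alveolar macrophages were in lung (41.4% against 0.15%). In liver the macrophage shares overlapped, at 0% to 80.5% in positive and 0.32% to 2.57% in negative samples. Classical monocyte shares overlapped between the sorts in bone and in liver. In bone they were 128 of 2008 cells in positive replicate 1 and 148 of 3505 in negative replicate 4. In liver they were 187 of 1221 cells in positive replicate 1 and 71 of 1268 in negative replicate 4. The part of these shares in the gene differences was not tested.

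**Figure D2:**
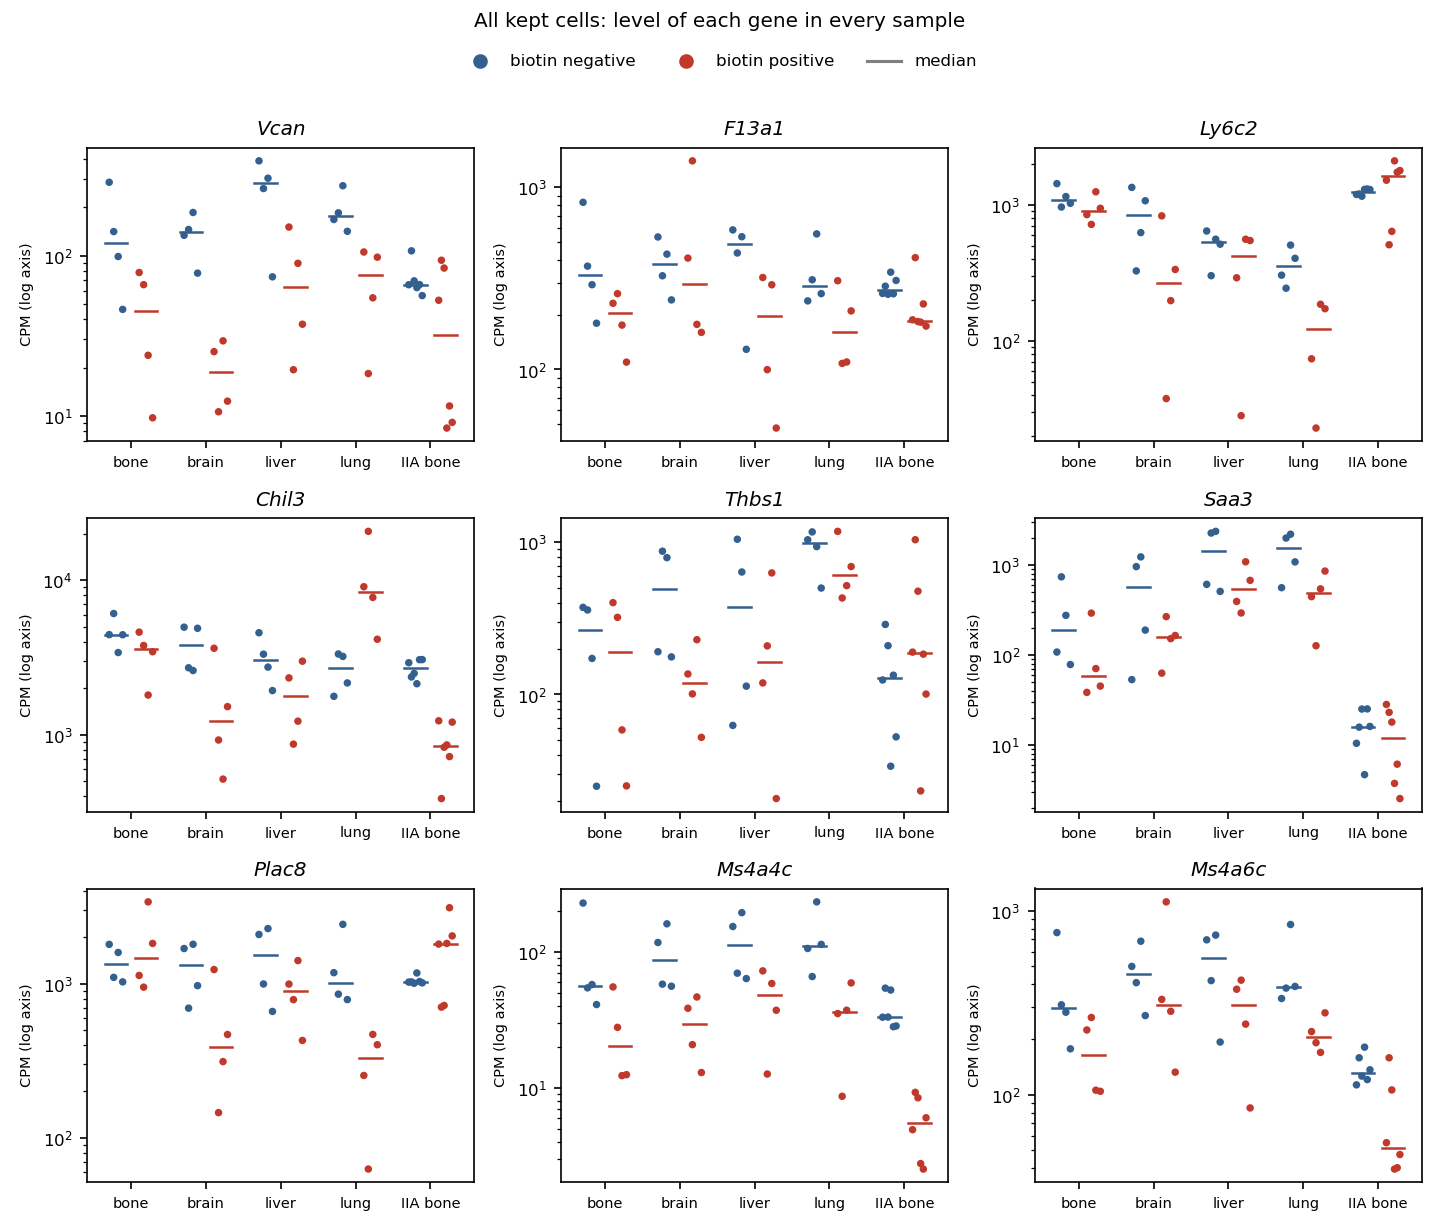
CPM over all kept cells (log axis) of each gene in every sample, by tissue and biotin sort, with points for samples and a line at the group median. Positive samples lie below negative ones for Vcan in brain, and above them for Chil3 in lung.

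Without the replicate number in the fit, lung had the most members past the test, 5 of 9 at an adjusted p under 0.05 where 18% of 12331 genes were called. Of these, 4 were lower in the positive sort, where 6.67% of genes were, and 1 was higher, where 11.4% were. Ms4a6c was 334, 380.5, 843 and 388.5 CPM in the 4 negative samples and 221, 192, 170 and 279 CPM in the 4 positive ones (log2 fold change -1.38, SE 0.29, adjusted p = 0.0145). The groups did not overlap, and negative replicate 3 stood above the rest. Plac8 was 1181, 856, 2434 and 790 CPM in negative and 254, 62.6, 469 and 402 CPM in positive samples (-2.27, SE 0.62, adjusted p = 0.0360), again without overlap. Ms4a4c was 106, 65.9, 233 and 114 CPM against 35.3, 8.71, 37.3 and 59.2 CPM (-2.04, SE 0.57, adjusted p = 0.0383). Vcan was 168, 185, 274 and 142 CPM against 105, 18.3, 54.5 and 97.8 CPM (-1.69, SE 0.49, adjusted p = 0.0456). In these 4 genes the positive values were all below the negative ones. The lectin gene Chil3 went the other way, from 1773, 3334, 3215 and 2165 CPM to 9089, 20762, 7749 and 4152 CPM (1.67, SE 0.44, adjusted p = 0.0326). Every positive sample was above every negative one, with positive replicate 2 the highest.

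The other 4 members in lung had lower fitted levels in the positive sort and did not pass the test: F13a1 (-1.12, adjusted p = 0.0722), Ly6c2 (-1.84, adjusted p = 0.0683), Saa3 (-1.78, adjusted p = 0.0831) and Thbs1 (-0.64, adjusted p = 0.254). Ly6c2 still did not overlap, with 243 to 504 CPM in negative and 22.9 to 185.5 CPM in positive samples. In all, 6 members did not overlap between the sorts, against 21.6% of genes, 5 of them lower, against 3.93%. The count of called members fell to 1 without negative replicate 1, 3 or 4, to 2 without positive replicate 1 or 3 and to 3 without positive replicate 4. Vcan kept its call without positive replicate 2 and lost it without any of the other 7 samples (adjusted p = 0.0509 to 0.105). It was also lost with no low-count filter (0.0738), at most 10% mitochondrial UMIs (0.0517), without doublet-like cells (0.0556) and with the replicate number as a block (0.0676), where Ly6c2 passed instead (-2.24, SE 0.49, adjusted p = 0.0279). Same-numbered samples did not all deviate together in lung or IIA bone, so blocked values in lung rest on a shared number only. In IIA bone that number is the one of the injection. Chil3 lost its call without negative replicate 1, 3 or 4 or positive replicate 1, 2 or 3 (adjusted p = 0.0529 to 0.0788). Plac8 lost its call without negative replicate 1, 3 or 4 or positive replicate 1 or 4 (0.0555 to 0.0914), and Ms4a4c without negative replicate 1, 3 or 4 or positive replicate 1 or 3 (0.0733 to 0.0977). With no low-count filter both were lost (0.0724 and 0.0780). Among 24 other classical monocyte genes, Ccr2 (-2.05) and Clec4a1 (-1.18) fell, and Mpeg1 (1.23) and Cybb (1.12), which macrophages also use, rose. Of 14 macrophage genes 10 rose, with their summed level at 1441 to 3633 CPM in negative and 2734 to 6988 CPM in positive samples. Of 6 lymphocyte genes 4 fell, with a summed level of 153 to 799 CPM in negative and 10.9 to 207 CPM in positive samples; their part in the result was not tested.

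In brain, 1 of 9 members passed the test, where 2.9% of 11064 genes were called and 0.181% were lower. Vcan was 134, 146, 186 and 77.8 CPM in negative samples and 25.1, 10.6, 29.4 and 12.3 CPM in positive ones (-3.09, SE 0.40, adjusted p = 0.0166), with every positive sample below every negative one. The call was lost without negative replicate 1 (adjusted p = 0.0614), negative replicate 4 (0.0782) or positive replicate 4 (0.0607). The number of genes called, 321, moved too: it was 3, 6 and 7 without these samples, 48 without negative replicate 3 and 740 without positive replicate 1. Ms4a4c also did not overlap, 117, 58.0, 161 and 56.0 CPM against 38.6, 20.9, 46.7 and 13.01 CPM (-1.97, SE 0.46, adjusted p = 0.0586); 0.931% of genes were lower without overlap. With the replicate number as a block, Vcan (-3.15, SE 0.31, adjusted p = 0.00878), Ms4a4c (-2.03, SE 0.20, adjusted p = 0.00878) and Chil3 (-1.82, SE 0.36, adjusted p = 0.0404) were lower, where 1.18% of genes were. F13a1 was uneven, at 534, 327, 430 and 241 CPM in negative and 409, 1400, 177 and 160 CPM in positive samples, with positive replicate 2 above all others. That sample had the largest macrophage share, 80.3% of its cells, and also the highest Ms4a6c, 1119 CPM. Fn1 (-2.46) and Smpdl3a (-1.47) of the 24 other monocyte genes fell. Of 14 macrophage genes 5 rose, and their summed level was 734 to 4390 CPM in negative and 11703 to 47647 CPM in positive samples.

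In bone and liver no member passed the test, and neither did any of the 12533 and 11854 genes tested (0% in both). In each, 4 members were under 0.05 before adjustment in edgeR's quasi-likelihood test, beside 977 genes in bone and 1569 in liver. DESeq2 called 0 members among 53 genes in bone, and Vcan (adjusted p = 0.0438) among 431 genes in liver. Vcan in bone was 287.5, 141, 98.8 and 46.2 CPM in negative and 78.5, 65.9, 23.8 and 9.70 CPM in positive samples (-1.82, SE 0.60, adjusted p = 0.620). The groups overlapped, yet in each of 4 replicate numbers the positive sample was the lower. With that number as a block, Vcan (-1.98, SE 0.19) and Ms4a4c (-1.90, SE 0.19) were lower in the positive sort of bone, both with an adjusted p of 0.0476, where 0.0638% of genes were. In liver Vcan was 391, 263, 304.8 and 73.8 CPM in negative and 151, 19.4, 89.6 and 37.3 CPM in positive samples (-1.94, SE 0.63, adjusted p = 0.258), and the block called none. No member was free of overlap in either tissue, where 0.702% of genes in bone and 1.29% in liver were lower without overlap. Positive liver replicate 4 had 94 cells in all. The median log2 difference of 14 macrophage genes was 3.26 in bone and 2.28 in liver, with 9 and 8 under 0.05 before adjustment in edgeR. For 6 lymphocyte genes it was -1.24 and -1.72, with 0 and 4 under 0.05. None of these genes passed after adjustment, and their part in the member differences was not tested.

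In IIA bone, 4 of 9 members were lower in the positive sort, where 50.1% of 12625 genes were called and 23.1% were lower. Ms4a4c ran from 28.2 to 54.2 CPM in the 6 negative samples around a median of 33.2, and from 2.54 to 9.31 CPM around 5.50 in the 6 positive ones (-2.98, SE 0.33, adjusted p = 2.58e-05). Chil3 ran from 2139 to 3065 CPM around 2712 and from 386 to 1230.5 CPM around 844 (-1.87, SE 0.24, adjusted p = 7.76e-05). Neither gene overlapped between the sorts, and of all genes tested 8.63% were lower without overlap. Ms4a6c (-1.13, SE 0.34, adjusted p = 0.0157) and F13a1 (-0.56, SE 0.21, adjusted p = 0.0400) were lower with overlap. For F13a1, positive replicate 2 at 412 CPM was above all 6 negative samples, and the other 5 positive samples, 173 to 229 CPM, were below them. Vcan split the positive samples into 52.6, 93.6 and 83.7 CPM in replicates 1 to 3 and 8.37, 11.5 and 9.09 CPM in replicates 4 to 6, against 56.3 to 107 CPM in the negative ones (-0.96, adjusted p = 0.183). With the replicate number as a block, Vcan passed (-1.52, SE 0.51, adjusted p = 0.0419), where 24.2% of genes were lower. Of the 24 other monocyte genes 12 fell, led by Ifitm6 (-2.49), Ccr2 (-2.31) and Ly6i (-1.94), and of 14 macrophage genes 12 rose. Of 12 neutrophil genes 11 fell, and their summed level was 213050 to 258608 CPM in negative and 40356 to 91835 CPM in positive samples. Of 6 lymphocyte genes 5 fell. Chil3 was highest in IIA cluster 4 and neutrophil precursors, and the part of these cells in its difference was not tested.

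Set side by side, the median log2 difference over the 9 members was -1.20 in bone, -1.52 in brain, -1.16 in liver, -1.69 in lung and -0.56 in IIA bone, and over all genes tested it was 0.01, -0.03, 0.02, -0.04 and 0.08. Whether the sort difference itself differed between the 4 intracardiac tissues was tested with an interaction term. No member passed in edgeR, where 1.14% of 13963 genes did, and DESeq2 passed 1 member among 547 genes. Without adjustment 2 members were under 0.05 in edgeR, beside 1819 genes. Chil3, higher in the positive sort of lung and with a negative log2 difference in the other 3 tissues, had an adjusted p of 0.0631, and with the replicate number as a block it passed (adjusted p = 0.0219), where 4.97% of genes did.

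**Figure D3:**
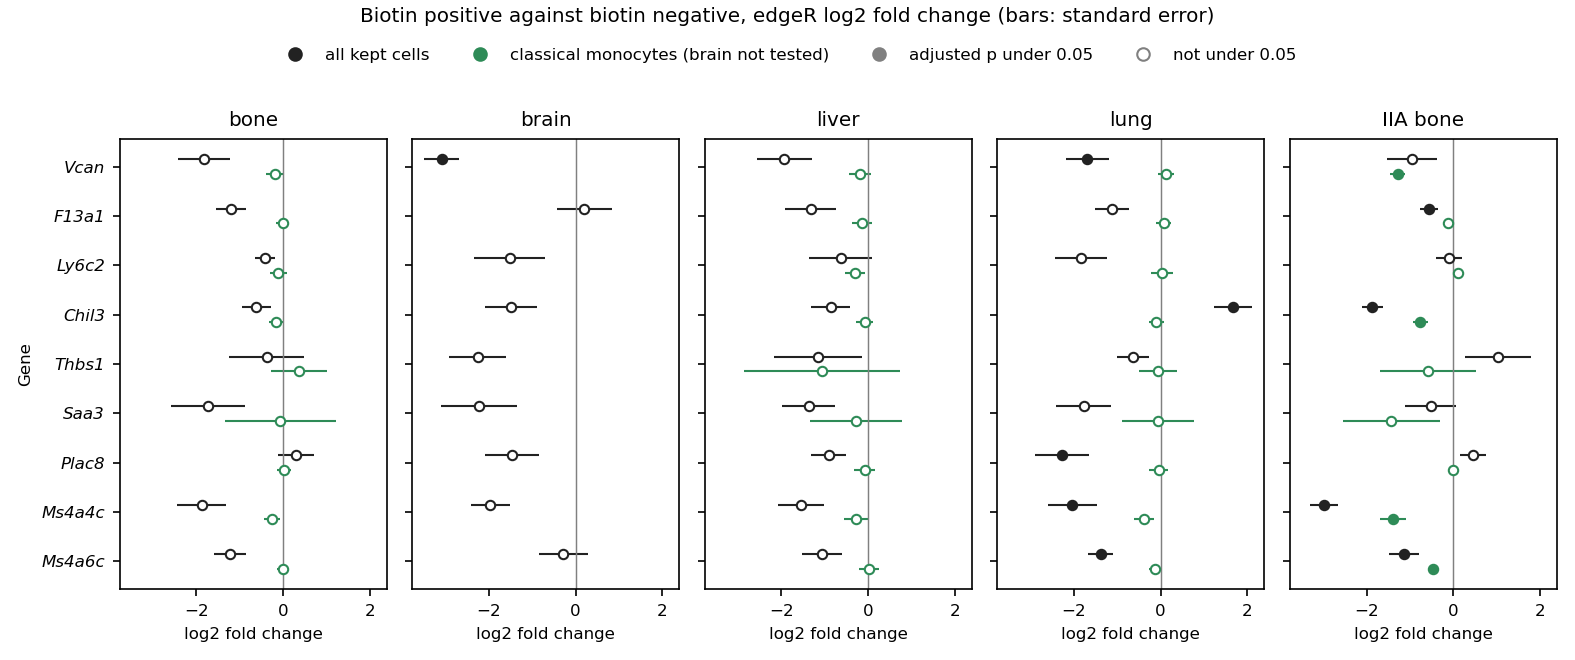
Log2 fold change of positive against negative samples (x axis, bars 1 standard error taken from the F value) for each gene (y axis) in each tissue, over all kept cells (black) and within classical monocytes (green), with filled points for an adjusted p under 0.05. The black points spread to -3.09 for Vcan in brain, whereas the green points of lung run from -0.38 for Ms4a4c to 0.12 for Vcan.

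The cell classes that held each transcript differed between sorts. In negative lung, classical monocytes held a median of 74.6% of Chil3 UMIs (59.0% to 88.5%), and in positive lung alveolar macrophages held 93.2% (81.1% to 98.3%). For Vcan, classical monocytes held 77.8% in negative lung and 24.2% in positive lung, where cluster 23 held 60.5% (19.1% to 79.5%). Thbs1 in positive lung likewise came mostly from cluster 23, 79.7% (27.8% to 89.3%), and in negative lung from classical monocytes, 56.9%. In brain, F13a1 UMIs lay in classical monocytes in the negative sort (58.3%) and in macrophages in the positive sort (66.0%, from 55.3% to 98.1%). Ms4a6c in positive brain lay in macrophages as well (49.5%, from 48.9% to 92.6%). In positive bone, neutrophil precursors held 82.5% of Plac8 UMIs (55.2% to 95.9%) and 68.3% of Ly6c2 UMIs (55.8% to 93.1%).

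**Figure D4:**
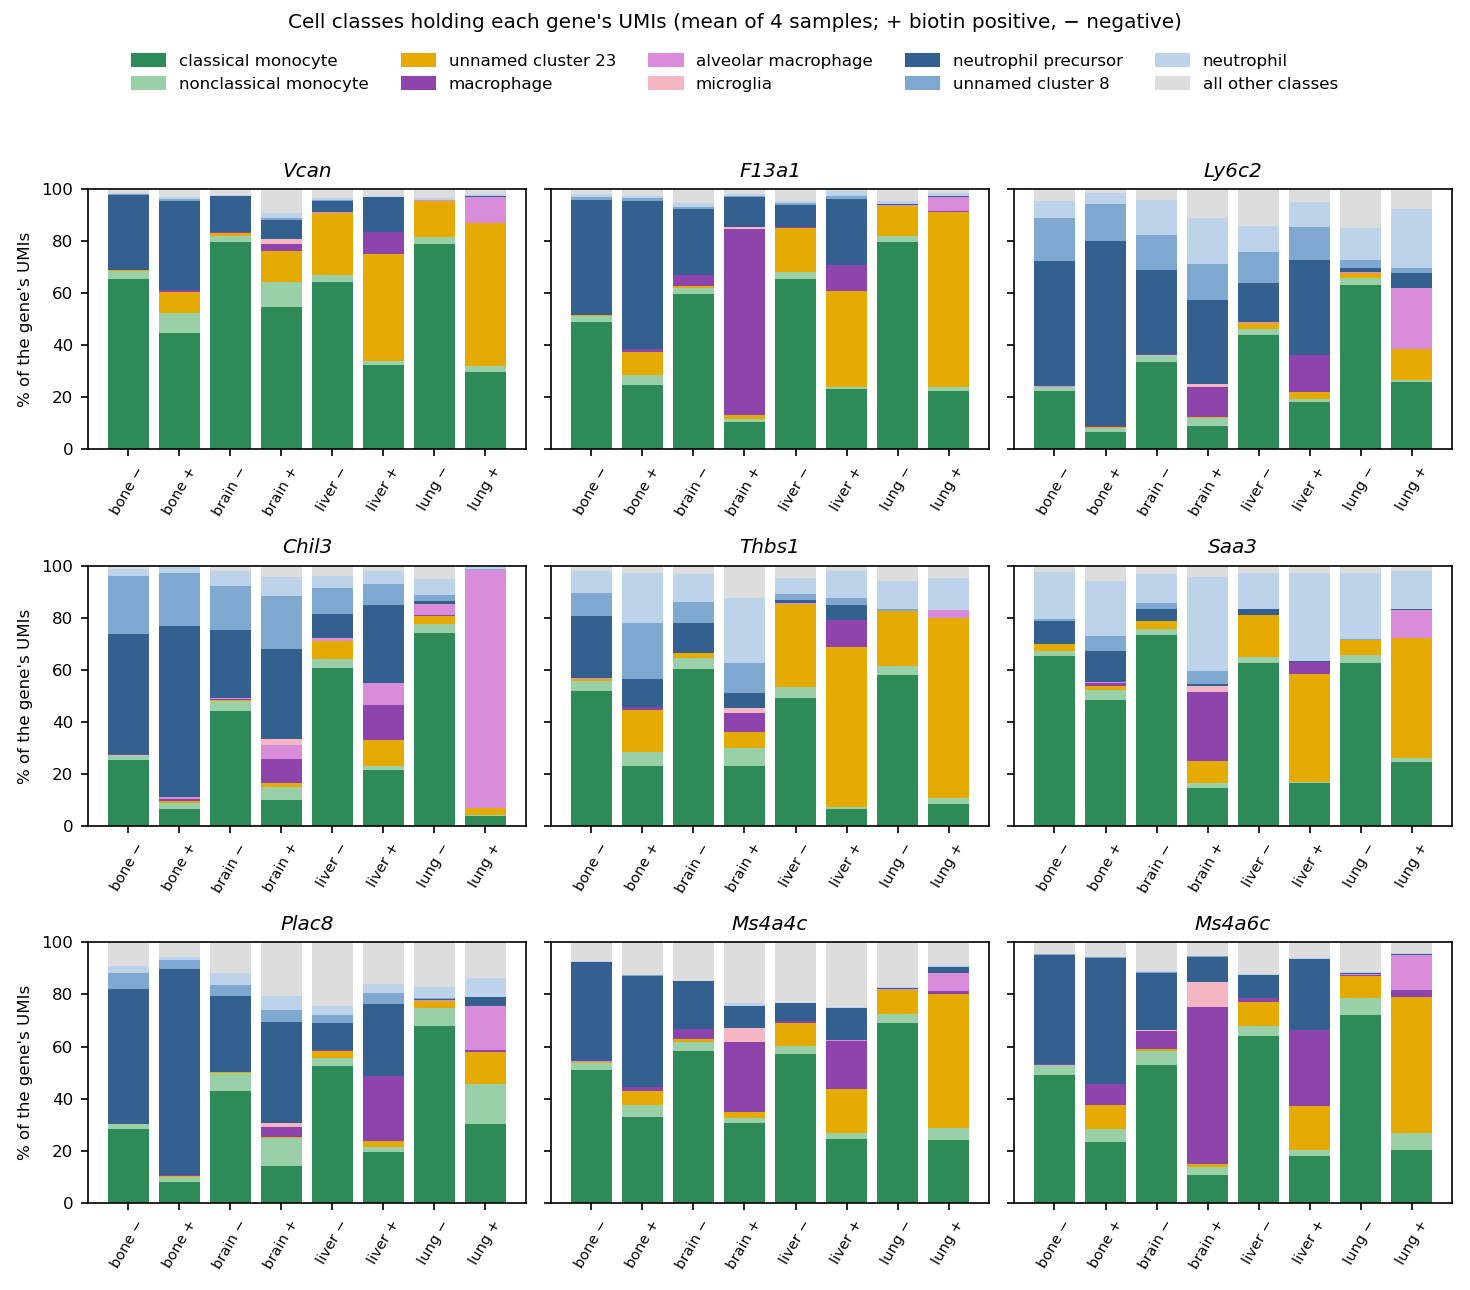
Percent of each gene's UMIs (y axis) held by each cell class in the 8 intracardiac groups (x axis, mean of 4 samples, + positive and − negative). Alveolar macrophages fill the Chil3 bar of positive lung, where their median share is 93.2%, and macrophages most of the F13a1 bar of positive brain, 66.0%.

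Within classical monocytes the sorts were compared again, in samples with at least 10 such cells. Without a block, no member passed the test in bone (4 positive against 4 negative samples), liver (2 against 4) or lung (4 against 4). Neither did any of the 8120, 8911 and 7391 genes tested there (0% in each), and no member had an unadjusted p under 0.05; DESeq2 called none of the 9 either. Beside this, 168, 142 and 138 genes had an unadjusted p under 0.05. Vcan was 604, 692, 576 and 547 CPM in negative and 635, 1059, 617 and 475 CPM in positive lung monocytes (0.12, SE 0.19), where the sample at 1059 rested on 10 cells. Plac8 was 4010, 2605, 4218 and 2617 CPM against 3803, 3589, 3837 and 2105 CPM (-0.05, SE 0.22). Ms4a4c was 370, 223, 417 and 333 CPM against 202, 200, 372 and 253 CPM (-0.38, SE 0.23). Chil3 was 6451 to 9061 CPM against 5575 to 9885 CPM (-0.10, SE 0.16). In each of these genes the groups overlapped. Ms4a4c was the lower in the positive sample of each of 4 replicate numbers, and with that number as a block it passed (-0.45, SE 0.11, adjusted p = 0.0251), where 0.0271% of genes were lower. That blocked p rested on a spread shared over genes, not on the spread of Ms4a4c itself between these samples. Over all kept cells, same-numbered lung samples did not all deviate together (lowest correlation -0.217), and positive replicate 2 had 10 monocytes. For Saa3 and Thbs1 the standard errors were 0.44 to 1.80 in the 3 tissues, and 0.075 to 0.17 with the block, which called neither gene. Ms4a6c in lung, and Vcan and Ms4a4c in bone, were also lower in the positive sample of each of 4 numbers. Thbs1 in bone was higher in each (blocked 0.47, SE 0.13, adjusted p = 0.482). None of these passed with the block. Brain was not tested, since 1 positive sample had enough cells, 20 of them, with Vcan at 545.5 CPM beside 560 to 735 CPM in the negative samples.

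In IIA bone, 3 positive samples with 17, 40 and 20 classical monocytes were compared with 6 negative ones. Here 4 of 9 members were lower in the positive sort, where 8.6% of 8629 genes were called and 4% were lower. Vcan was 196, 118 and 191 CPM in positive samples and 328 to 441 CPM in negative ones (-1.28, SE 0.17, adjusted p = 0.000601). Chil3 was 1491, 1091 and 1476 CPM against 1933 to 3018 CPM (-0.76, SE 0.17, adjusted p = 0.0225). Ms4a4c was 97.8, 40.6 and 130 CPM against 162 to 255 CPM (-1.39, SE 0.30, adjusted p = 0.0138), and Ms4a6c 538, 468 and 717 CPM against 732 to 873 CPM (-0.47, SE 0.12, adjusted p = 0.0180). None of the 4 overlapped, and of all genes tested 9.07% were lower without overlap. Ly6c2, 2677, 3181 and 3058 CPM against 2608 to 2893 CPM, had a log2 difference of 0.11 (SE 0.07) and did not pass. These calls depended on how the cells were clustered. With the 9 genes allowed among the variable genes, or with a Leiden resolution of 2.0, no member passed, and Vcan had log2 differences of -0.73 and -0.72 (adjusted p = 0.106 and 0.0715). Under the same settings Chil3 was at -0.18 and -0.24, Ms4a4c at -0.76 and -0.85 and Ms4a6c at -0.24 and -0.23. Without positive replicate 5, the sample with 40 cells, 1 member, Vcan, passed, and genes called went from 742 to 45. Chil3 was also lost without positive replicate 6 (adjusted p = 0.0537). Of the 24 other monocyte genes in this comparison 12 were lower, with Clec4a3 (-2.52), Ifi204 (-1.96) and Lyz2 (-1.39) the furthest, and Irf8 (0.57) was higher. Genes of other cell types were lower as well, 2 of the 6 macrophage genes tested (median log2 difference -0.95) and 1 of the 9 nonclassical monocyte genes tested (-0.91). Their summed levels were 316 to 708 and 551 to 789 CPM in negative and 154 to 617 and 434 to 666 CPM in positive samples, which overlapped, and their part in the result was not tested.

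The last comparison took the biotin negative classical monocytes of the 4 tissues, with bone, where monocytes are made, as the common reference. The 3 contrasts share the bone samples. Without a block, none of the 9 members passed in brain (0.0106% of 9444 genes called), liver (2.81%) or lung (6.97%), nor in the test of any tissue difference (3.76%). An unadjusted p under 0.05 was reached by 0, 2, 2 and 1 members in edgeR, and by 413, 1279, 2102 and 1491 of the 9444 genes. DESeq2 called 1 member for liver, among 368 genes, and 1 for any tissue difference, among 677, and none for brain or lung. Same-numbered samples deviated together from their group means between bone and each other tissue, so the fit with the replicate number as a block is given beside it. Brain and lung samples, which are in the same fit, did not all do so with each other (lowest correlation 0.0823).

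Ly6c2 was 1985, 1424, 1602 and 2091 CPM in bone replicates 1 to 4, 877, 632, 989 and 992 CPM in liver and 788, 650, 992 and 1250 CPM in lung. Neither liver nor lung overlapped with bone. The share of all genes without overlap between tissues was not computed, so overlap between tissues is given here and below as a description only. The log2 difference to bone was -0.90 (SE 0.27, adjusted p = 0.106) in liver and -0.76 (SE 0.27, adjusted p = 0.106) in lung without the block, and -0.91 (SE 0.17, adjusted p = 0.00923) and -0.79 (SE 0.17, adjusted p = 0.00994) with it. In brain it was 1974, 779, 1118 and 2111 CPM, which reached into the bone range. The summed levels of genes of other cell types were higher where Ly6c2 was lower. The 12 nonclassical monocyte genes summed to 627 to 943 CPM in bone, 1146 to 1812 CPM in liver and 1326 to 1747 CPM in lung, with 2 called higher in liver and 3 in lung. The 14 macrophage genes summed to 1801 to 2823, 3213 to 5279 and 3747 to 5668 CPM, with 0 called in liver and 3 higher in lung. Neither sum overlapped with bone in liver or lung, and their part in the Ly6c2 difference was not tested. F13a1, at 1290 to 1656 CPM in bone, was 730 to 1241 CPM in liver (-0.35, SE 0.10, adjusted p = 0.0360) and 896 to 1179 CPM in lung (-0.28, SE 0.10, adjusted p = 0.0488) in the blocked fit, and overlapped with bone in neither tissue over both monocyte clusters together. With the block, liver thus had 3 members called, where 7.96% of genes were, lung 4, where 18.9% were, and brain 0, where 0.222% were. In the blocked test of any tissue difference, which 12.4% of genes passed, Ly6c2 (adjusted p = 0.0127) and Plac8 (0.0464) passed, and Saa3 (0.0532) and F13a1 (0.0623) did not.

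The other blocked calls were of genes that rose outside bone. Saa3 was 218, 4497, 2809 and 486 CPM in bone replicates 1 to 4, 1144, 6409, 5292 and 2420 CPM in liver and 1034, 6871, 4943 and 2567 CPM in lung. Each replicate was higher than its bone counterpart, although the groups overlapped (blocked 1.61, SE 0.42, adjusted p = 0.0469 in liver and 1.67, SE 0.42, adjusted p = 0.0236 in lung). Without the block the Saa3 difference in edgeR was 1.02 (SE 1.049, adjusted p = 0.770) in liver and 1.08 (SE 1.0499, adjusted p = 0.607) in lung. Plac8 was 2466 to 3289 CPM in bone and 2605 to 4218 CPM in lung (blocked 0.45, SE 0.11, adjusted p = 0.0107). Among the 24 other monocyte genes, 5 were higher in lung than in bone without the block, including Cd14 (2.23), Clec4a1 (0.94) and Csf1r (0.85), the receptor that monocytes and macrophages need to survive.

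**Figure D5:**
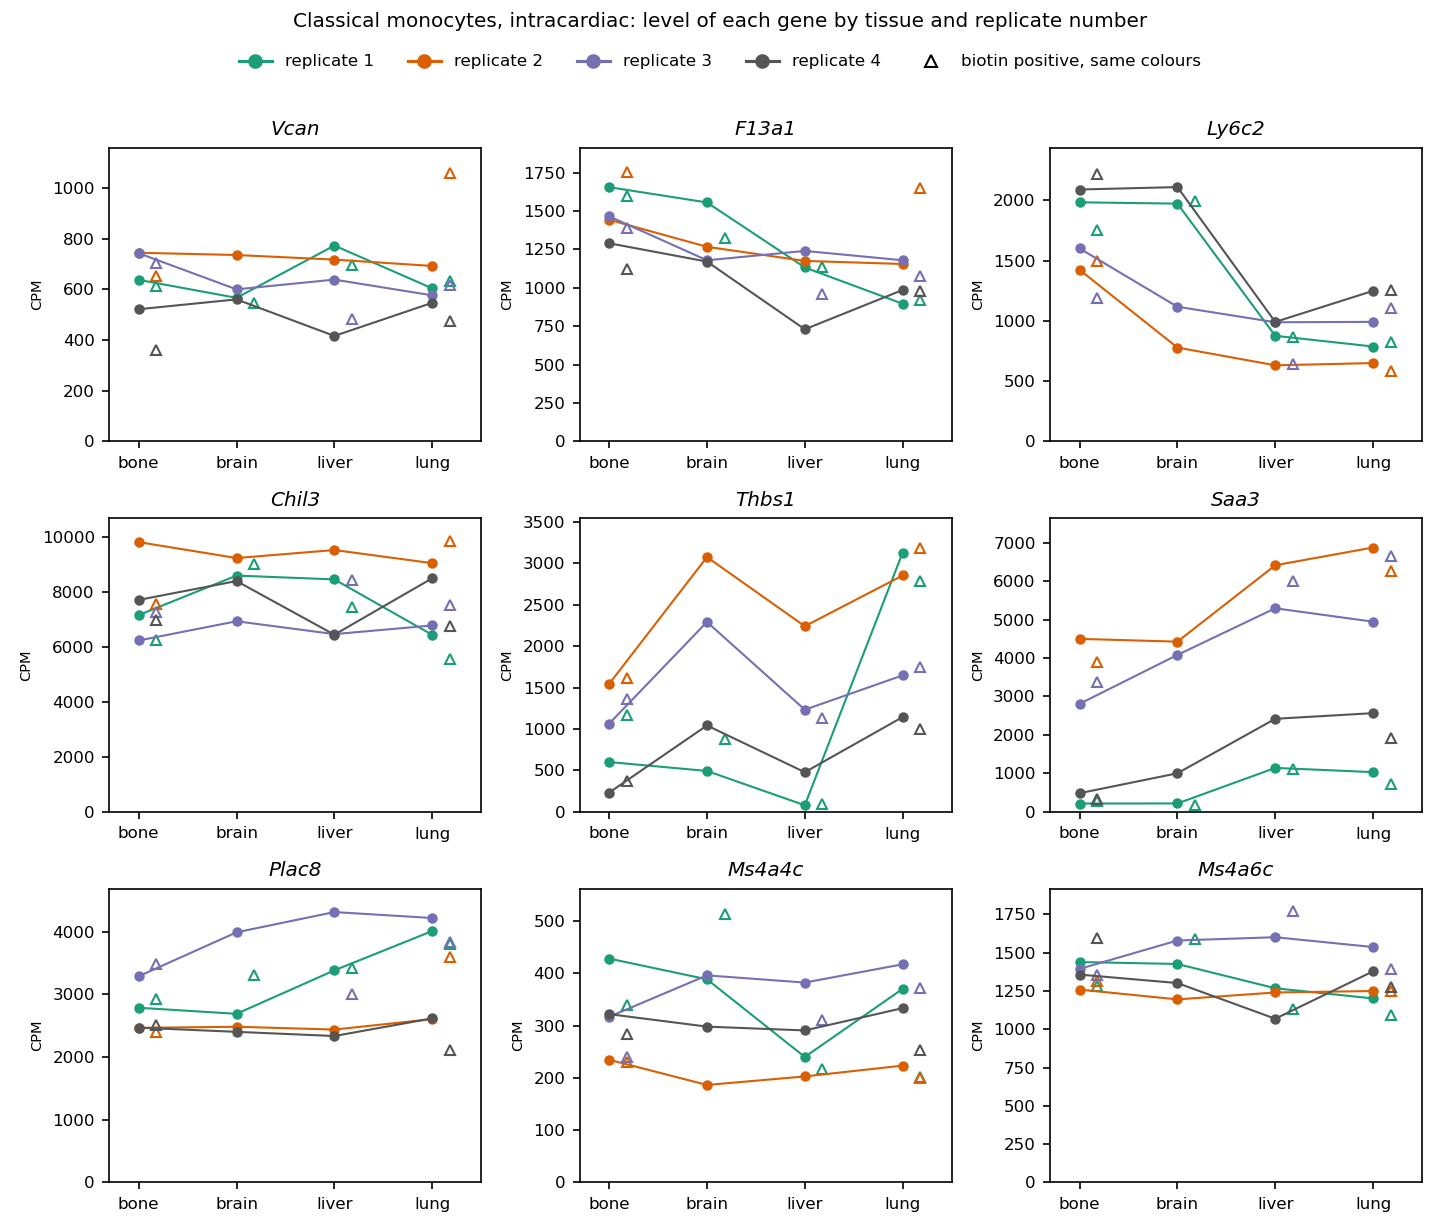
CPM of each gene in classical monocytes by intracardiac tissue (x axis), with lines joining biotin negative samples of the same replicate number and open triangles for positive samples with at least 10 cells. The Saa3 lines run in the same order in every tissue, from 218 to 4497 CPM in bone, while Ly6c2 lies lower in liver and lung than in bone in all 4 replicates.

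In several members the same replicate number was highest or lowest in every tissue. Among negative classical monocytes, Saa3 was lowest in replicate 1 and highest in replicate 2 in 4 of 4 tissues. Ly6c2 was lowest in replicate 2 and highest in replicate 4 in 4 of 4 tissues. Chil3 was highest in replicate 2, Plac8 highest in replicate 3, Vcan lowest in replicate 4 and Ms4a4c lowest in replicate 2, each in 4 of 4. The labels do not say what samples with the same number share.

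The classical monocytes of the tissues also lay in different clusters. Cluster 2 held 62.9% to 85.1% of the negative bone monocytes and 0.704% to 3.85% of the negative lung ones, most of which were in cluster 3. In brain and liver the share of cluster 2 was 96.3% and 98.1% in replicate 1 and 5.52% to 43.7% in the others. Within cluster 3 alone, Ly6c2 was 1264 to 1875 CPM in bone, 557 to 964 CPM in liver and 653 to 1245 CPM in lung, again without overlap with bone. F13a1 within cluster 3 was 1130 to 1511 CPM in bone, 740 to 1243 CPM in liver and 890 to 1183 CPM in lung. The medians were 1357, 960 and 1071 CPM, and both tissues overlapped with bone. The part of the cluster mix in the F13a1 difference was not tested. Thbs1 had a higher median in cluster 3 than in cluster 2 of the same tissue, with no test. In negative bone it was 83.9 to 665 CPM in cluster 2 and 978 to 3180 CPM in cluster 3. In negative liver the clusters overlapped, at 70.8 to 723 CPM and 450 to 2321 CPM. Over both clusters together, Thbs1 was 1144 to 3128 CPM in negative lung and 233 to 1544 CPM in negative bone monocytes. The part of the cluster mix in this was not tested.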

How the data were processed

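Single-cell UMI counts per gene and cell were deposited by the authors, and the file headers give Cell Ranger 6.1.2 for the 32 intracardiac matrices and 7.1.0 for the IIA pool. Per the submitters' processing notes the build was mm10 and Seurat was used; how is not given in the sources used here. IIA barcodes were assigned to samples by hashtag (at least 10 counts and 3 times the second), matching the hashtag numbers of the deposited barcode table to those in the count file. The names around these numbers differ between the 2 files and no sequence was matched, so every IIA value rests on the number. Cells with at least 500 UMIs, 200 genes and at most 15% mitochondrial UMIs were kept, doublets included.

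Cells were clustered with scanpy 1.11.5 (2000 variable genes without the 9 members, 30 components, 15 neighbours, Leiden resolution 1.0) and named from 22 marker lists, needing 3 markers among 100 leading genes. Counts were summed per sample and class (at least 10 cells) and tested with edgeR 4.0.16 in R 4.3.3 (quasi-likelihood, TMM, low counts filtered), with Benjamini-Hochberg adjustment over all genes tested at 0.05. Each SE is the absolute log2 difference divided by the square root of the F value of the edgeR test, and was not fitted separately. Alternatives included DESeq2 1.42.0, other filters, other clusterings, a replicate block and left-out samples. In simulated lung data over 12146 genes, 25.5% of genes changed by 1 log2 unit and 91.8% of those changed by 2 were recovered. In the other simulated comparisons 50% to 69.1% of those changed by 1 unit were recovered. The simulation changed 200 genes and set the spread by mean level alone. In the real lung data 2222 genes were called, so its recovery can differ.

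Same-numbered samples deviated together in bone, brain and liver (lowest correlation 0.445, 0.326 and 0.329) and, for monocytes, between bone and brain, liver and lung (0.351, 0.241 and 0.372). Between brain and lung monocytes they did not all do so (0.0823). The labels do not say what the intracardiac number marks. The members and gene lists were chosen with earlier results of these data known. All 9 members are named, beside at most 3 other monocyte genes per comparison and direction with the largest change past the test, and the genes most alike.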

Additional observations from a re-analysis of the deposited data

Results flagged for a closer look

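Of 153 groups of 4 to 10 samples, 7 had a sample whose gap to the nearest other passed Dixon's 95% value, which chance gives in about 1 of 20 groups. Over all kept cells, F13a1 was 411.5 CPM in IIA positive replicate 2, with the other 5 at 173 to 229. Ms4a4c was 228.5 CPM in bone negative replicate 1, with the others at 41.1 to 57.6. Ms4a6c was 843 CPM in lung negative replicate 3, with the others at 334 to 388. Plac8 was 1176 CPM in IIA negative replicate 4, with the others at 1008 to 1035. Saa3 was 292.6 CPM in bone positive replicate 2, with the others at 38.4 to 70.6. Vcan was 107.2 CPM in IIA negative replicate 2, with the others at 56.3 to 69.6. In classical monocytes, Plac8 was 2105 CPM in lung positive replicate 4, with the others at 3589 to 3837.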

How the results depend on the processing

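Of 551 single-member values under other processing, 507 kept their direction and side of the threshold, 14 lost and 28 gained a call, and 2 reversed: F13a1 in IIA classical monocytes was 0.087 with the members among the variable genes and 0.068 at resolution 2.0. With a sample left out, 565 of 601 were kept, 30 lost and 6 gained a call. Counts of called members over all cells were, for brain, 2 without the low-count filter, 4 with DESeq2, 2 without doublet-like cells and 0 to 4 with a sample left out. For lung they were 2 without the filter (1918 of 22050 genes), 8 with DESeq2 (3094 of 12331 genes) and 1 to 5 with a sample left out, and for liver 1 with DESeq2. In IIA classical monocytes they were 0 under both other clusterings and 1 to 4 with a sample left out, an alternative chosen after seeing the data. DESeq2 called 1 member for liver against bone, for any tissue difference and for the interaction; leaving out a sample gave 0 to 1 for any tissue difference. The causes were not tested.

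With the replicate block, 2 members were called in bone, 3 in brain, 5 in IIA bone, 3 in liver against bone, 4 in lung against bone, 2 for any tissue difference, 1 for the interaction and 1 in lung classical monocytes (Ms4a4c). In lung the block left the count at 5 with Ly6c2 in place of Vcan. Same-numbered samples did not all deviate together in lung (lowest correlation -0.217) or IIA bone (0.0958). The mean correlation was 0.262 for the same number and -0.084 for other numbers in lung, and 0.334 and -0.065 in IIA bone. The block changed no other count of members by over 1.5 times. Genes called moved from 0 to 53 with DESeq2 and 11 with the block in bone, from 321 to 1225 and 725 in brain, from 0 to 431 with DESeq2 in liver, from 355 to 677 and 1169 for any tissue difference, from 159 to 547 and 694 for the interaction, from 1 to 20 and 21 for brain against bone, and with the block from 265 to 752 for liver against bone, from 658 to 1788 for lung against bone and from 8.6% to 3.58% of genes in IIA monocytes, where 742 genes became 1130 without the filter. At resolution 2.0, brain against bone had 101. With a sample left out, genes called ran from 3 to 740 in brain, 1242 to 2351 in lung, 45 to 1360 in IIA monocytes, 123 to 271 for liver against bone, 288 to 706 for lung against bone, 182 to 447 for any tissue difference and 4 to 160 for the interaction. In bone, liver and lung monocytes the block called 8, 8 and 10 genes, and no filter called 9 in liver.

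Classical monocytes of brain were not fitted, with 1 positive sample, and the minimum of 20 cells was not run in liver. Positive lung samples had 10 to 55 classical monocytes each, and the part of this in the standard errors was not tested. Counting intervals would cover counting error only.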
